A study of Mus musculus with 6 samples.

Results

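The S100 proteins described here are a set of 10 genes, S100a3, S100a4, S100a6, S100a7a, S100a8, S100a9, S100a10, S100a11, S100a14 and S100a16, chosen by name from the gene annotation carried in the scanner files and not by their measured values. They were measured by 12 probes that are not control spots, out of 55681 such probes on each array, and 9 of the 10 genes passed the filter on dim probes and were tested among 24358 targets. S100a7a did not pass it and is given by its values alone.

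Back skin of male C57BL/6 mice, aged 6 to 8 weeks, was compared between a control group kept in the dark and a group exposed to ultraviolet B (UVB), with 3 mice and 3 arrays in each. All mice of both groups had the back shaved, and exposure began 2 days later in the UVB group, at 180 mJ/cm2, 3 times a week for 2 weeks. How long after the final exposure the skin was taken is not stated in the labels. RNA of whole skin was labelled with the dye Cy3 from 0.2 µg and hybridised to 1-colour Agilent mouse arrays of 60-base probes, 1 array for each replicate.

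S100 proteins are small calcium-binding proteins with a pair of EF-hand motifs, which mostly act as dimers. Binding of calcium exposes a surface through which they attach to partner proteins such as annexins and non-muscle myosin, and several are also released from stressed cells and signal through receptors such as Tlr4 and Ager (RAGE). Most S100 genes lie in one cluster beside the epidermal differentiation complex, a region rich in genes of the cornified layer, and in skin the family is known both for the alarmins S100A8 and S100A9 of inflamed epidermis and for S100A3 of the hair cuticle.

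The sequences upstream of 3 of these genes are shown because the results turn on them: S100a8 and S100a9, the alarmin pair whose values moved side by side, and S100a3, the one member that rose. Each is the 250 bases before the annotated start in the RefSeq promoter table for GRCm38.p6, read 5′ to 3′ on the gene's own strand. Capitals mark matches, on either strand, to TTNNGNAA, the core letters of the C/EBP motif, and to TATAAA, the TATA box; another motif, TGANTCA of AP-1, has no match in these windows. S100a8 lies on the plus strand at chr3:90668821-90669070, S100a9 on the minus strand at chr3:90695722-90695971, and S100a3 on the plus strand at chr3:90599964-90600213, the one of its 4 listed promoters whose start is nearest to that of S100a4.
S100a8: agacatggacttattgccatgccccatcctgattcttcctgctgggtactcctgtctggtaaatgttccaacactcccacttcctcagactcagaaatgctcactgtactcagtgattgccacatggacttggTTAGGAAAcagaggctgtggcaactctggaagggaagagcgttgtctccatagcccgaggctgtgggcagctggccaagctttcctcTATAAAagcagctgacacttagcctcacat
S100a9: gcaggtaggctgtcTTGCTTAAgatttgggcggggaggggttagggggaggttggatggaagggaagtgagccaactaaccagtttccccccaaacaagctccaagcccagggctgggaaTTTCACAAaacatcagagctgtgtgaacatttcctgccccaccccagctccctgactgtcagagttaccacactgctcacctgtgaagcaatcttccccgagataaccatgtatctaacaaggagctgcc
S100a3: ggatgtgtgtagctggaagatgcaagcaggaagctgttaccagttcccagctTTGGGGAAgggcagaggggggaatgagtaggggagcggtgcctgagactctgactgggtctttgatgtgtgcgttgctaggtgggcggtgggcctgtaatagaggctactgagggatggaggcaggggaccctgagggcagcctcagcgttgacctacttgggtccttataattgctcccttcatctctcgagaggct

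The table held promoters of 8 of the 10 genes, all but S100a10 and S100a14, and 12 promoters in all. The TTNNGNAA letters occurred in a promoter of 3 of the 8 genes, S100a3, S100a8 and S100a9, with 1 match in the S100a8 window and 2 in that of S100a9. Counted by promoter, 4 of the 12 held them, against 36.85% of all 32851 mouse promoters of this length, so a match is common. TATAAA occurred in 3 of the 8 genes, S100a3 (at a start other than the one shown), S100a4 and S100a8, which is 3 of 12 promoters against 12.37% of all, and in S100a8 and S100a4 it began 30 and 31 bases before the start. TGANTCA occurred in 2 of the 8 genes, S100a11 and S100a16, which is 2 of 12 promoters against 6.749% of all. These matches describe letters and do not show that a factor binds there.

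The comparison of UVB with control skin asked which S100 genes differed after repeated exposure. Signals are given as log2 of the processed spot brightness minus the 75th percentile of the same array, so that 0 is the brightness at that percentile, and differences were tested with limma, with p-values adjusted by the Benjamini-Hochberg method over all targets and called under 0.05. Of the 9 tested members, 1 rose (S100a3), 1 fell (S100a10) and 7 did not pass. Calls were made for 12.5% of all targets, 5.54% as higher and 7% as lower, against 22.2% of these 9 members, a share that rests on 2 genes. Signals of the UVB and control arrays did not overlap for 5 of the 9 members, 3 with UVB above (S100a3, S100a8 and S100a9) and 2 with UVB below (S100a4 and S100a10). Among all targets the groups did not overlap for 38.5%, with UVB above for 15.9% and below for 22.6%. The median log2 fold change of the 9 members was -0.07, beside -0.04 over all targets, and 5 of the 9 members had an unadjusted limma p under 0.05, as did 31.5% of all targets.

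**Figure D1:**
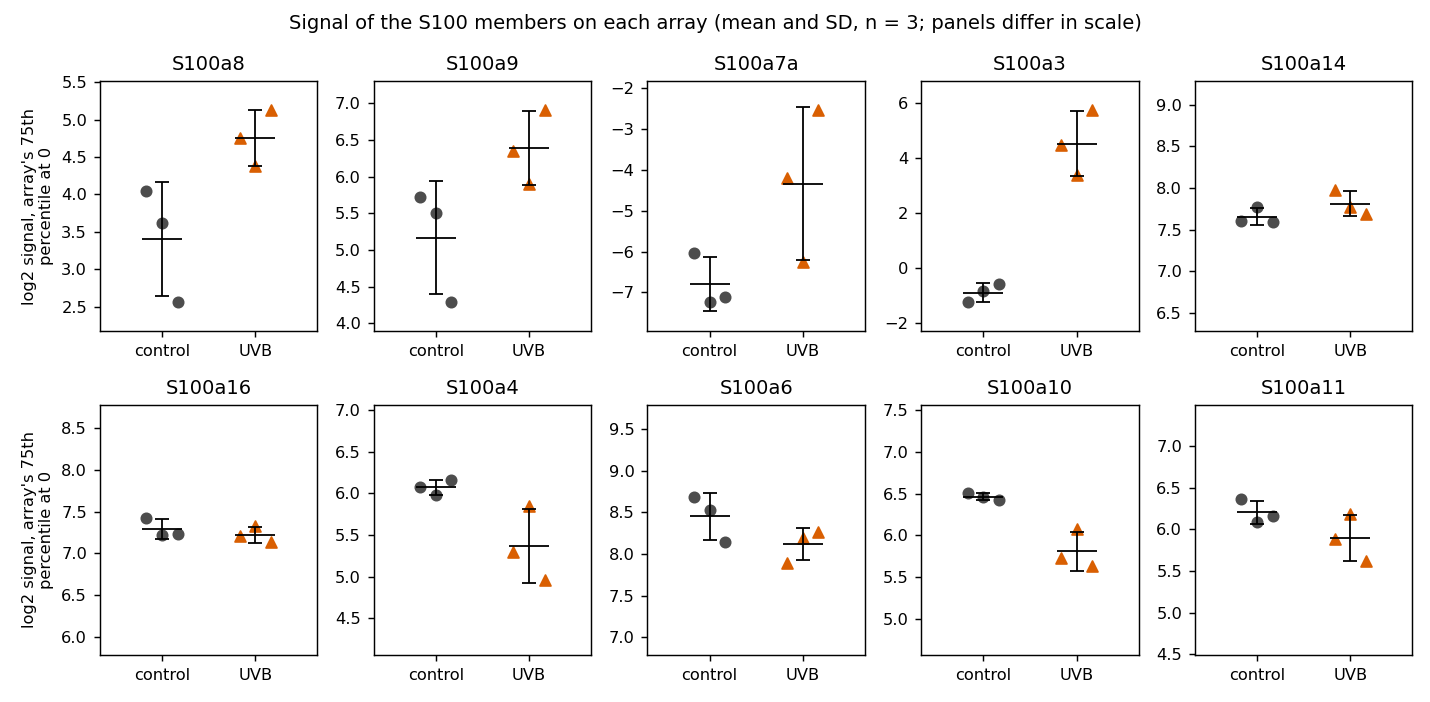
Log2 signal of each S100 gene on each array, with the array's 75th percentile at 0; circles are control and triangles UVB mice, and bars give the mean and SD of 3 arrays. The groups are apart for S100a3, S100a8, S100a9, S100a4 and S100a10, and S100a7a had no control array well above background.

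S100a8 and S100a9 encode the subunits of calprotectin, which is abundant in neutrophils, is made by stressed keratinocytes and withholds metal ions from microbes. The S100a8 signal was 4.04, 3.62 and 2.56 in the control mice and 4.75, 4.38 and 5.13 in the UVB mice. All 3 UVB arrays were above all 3 control arrays, and control replicate 3 was the lowest of the 6. The difference was 1.35 ± 0.40 (fitted log2 fold change ± SE), which is 2.54-fold, with a 95% interval of 0.37 to 2.32 on the log2 scale. It did not pass the test over all targets, with an adjusted p of 0.0778. The S100a8 probe lies at chr3:90473778-90473837 on mm9.

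S100a9 ran close to S100a8 on every array. Its signal was 5.72, 5.50 and 4.28 in the control mice and 6.35, 5.90 and 6.91 in the UVB mice, again with no overlap between the groups and with control replicate 3 lowest. The log2 fold change of 1.22 ± 0.44 (SE) is 2.33-fold, with a 95% interval of 0.17 to 2.27, and the adjusted p of 0.115 did not pass. Its probe lies at chr3:90496573-90496632 on mm9. Within each array the S100a9 signal exceeded the S100a8 signal by 1.68, 1.88 and 1.73 in the control mice and by 1.60, 1.52 and 1.78 in the UVB mice on the log2 scale. This gap varied over a range of 0.36 over the 6 arrays. Within the control and UVB groups the SDs (n = 3 each) were 0.76 and 0.37 for S100a8 and 0.77 and 0.50 for S100a9. The range of the gap was below each of these SDs, and both genes ordered the arrays alike within each group. The pair thus moved together from mouse to mouse as well as between groups. The gap is between 2 probes and is not a ratio of transcript amounts.

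Control replicate 3 and the background correction bear on the pair. Without control replicate 3 the S100a8 log2 fold change was 0.92 and that of S100a9 was 0.78, and the second of these is over 1.5 times smaller than with all arrays. With normexp background correction S100a8 passed, at 1.30 with an adjusted p of 0.0340, and S100a9 did not, at 1.18 with an adjusted p of 0.0617.

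S100a7a, the mouse relative of psoriasin, an antimicrobial protein of inflamed epidermis, lies between S100a6 and S100a8 and was near the floor of the arrays. Its probe, at chr3:90461922-90461981 on mm9, was well above background on 0 of 3 control arrays and on 2 of 3 UVB arrays. The processed brightness was 5.50, 3.43 and 3.52 in the control mice and 19.0, 4.09 and 52.0 in the UVB mice. On the scaled log2 scale these values are -6.04, -7.24 and -7.10 against -4.21, -6.27 and -2.54, so that UVB replicate 2 lay among the controls and the other 2 UVB arrays lay above them. The UVB mean was at least 1.73-fold higher than the dimmest measurable level of the control arrays. When no filter on dim probes was applied, the log2 difference was 2.46 with an adjusted p of 0.102, which did not pass.

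S100a3 rose more than any other member. S100A3 is a cysteine-rich protein of the hair cuticle that binds zinc as well as calcium and is modified by the enzyme PADI3. Its signal was -1.24, -0.84 and -0.57 in the control mice and 4.47, 3.38 and 5.77 in the UVB mice. The lowest UVB array was above the highest control array by more than the whole spread within either group. The log2 fold change was 5.42 ± 0.58 (SE), 43.0-fold, with a 95% interval of 4.03 to 6.82 and an adjusted p of 0.00512, and it ranked 70 among 24358 targets by upward change. The UVB mice differed among themselves more than the controls did, with SDs of 1.19 and 0.34 (n = 3 each). The probe, at chr3:90406396-90406455 on mm9, was well above background on all 6 arrays. UVB replicates 2 and 3 lay on another row of the slide than the other 4 arrays. With that row as a block, the contrast rests on UVB replicate 1 against the 3 controls, assuming that a lone array varies like the others. The difference was then 5.36, close to that of all arrays, with an adjusted p of 0.0719.

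The 10 genes described here include 4 that are expressed widely in epidermis and connective tissue and act inside cells on partner proteins: S100a4, S100a6, S100a10 and S100a11. S100A10, or p11, binds annexin A2 at membranes. The S100a10 signal was 6.50, 6.46 and 6.42 in the control mice and 5.73, 6.08 and 5.63 in the UVB mice. The controls lay close together, with an SD of 0.04 (n = 3), and every UVB array was below them. S100a10 fell by 0.65 ± 0.15 (SE) on the log2 scale, 1.57-fold, with a 95% interval of -1.01 to -0.29 and an adjusted p of 0.0401. The call was lost when any 1 array other than UVB replicate 2 was left out, with adjusted p-values from 0.0916 to 0.132, and with the slide row as a block, at -0.73 with an adjusted p of 0.189. Without a filter on dim probes the same difference had an adjusted p of 0.0714. The probe lies at chr3:93368437-93368496 on mm9.

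S100A4, known from migrating fibroblasts, immune cells and metastatic tumours, binds non-muscle myosin IIA. The S100a4 signal was 6.07, 5.98 and 6.17 in the control mice and 5.30, 5.85 and 4.96 in the UVB mice. All UVB arrays were below all control arrays, with UVB replicate 2 near them. The log2 fold change was -0.70 ± 0.23 (SE), with a 95% interval of -1.26 to -0.14 and an adjusted p of 0.0980, so it did not pass. A second S100a4 probe gave -0.71 ± 0.24 (SE). S100a4 passed in 2 alternatives, with normexp background correction (-0.73, adjusted p 0.0361) and without UVB replicate 2 (-0.94, adjusted p 0.0383). Its brighter probe lies at chr3:90409908-90409967 on mm9.

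S100A6, or calcyclin, binds the Cacybp protein and is high in proliferating cells. The S100a6 signal was 8.68, 8.53 and 8.14 in the control mice and 7.90, 8.19 and 8.26 in the UVB mice, and the groups overlapped through control replicate 3. Its log2 fold change was -0.33 ± 0.19 (SE), with a 95% interval of -0.78 to 0.12 and an adjusted p of 0.272. S100A11 binds annexin A1 and is a component of the cornified envelope. The S100a11 signal was 6.36, 6.09 and 6.16 against 5.88, 6.19 and 5.63, with UVB replicate 2 inside the control range. Its log2 fold change was -0.31 ± 0.18 (SE), with a 95% interval of -0.73 to 0.12 and an adjusted p of 0.288. Single arrays moved both by over 1.5 times, S100a6 to -0.218 without control replicate 1, and S100a11 to -0.17 without UVB replicate 3. Without UVB replicate 1, S100a6 was at -0.224, a slightly smaller move. The S100a11 probe is annotated to predicted transcripts as well as to S100a11, so near-identical copies may add to its signal. These intervals leave room for a decrease as large as that of S100a10 and for none.

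S100A14 and S100A16 are epithelial S100 proteins that can pair with each other. The S100a14 signal was 7.61, 7.77 and 7.59 in the control mice and 7.98, 7.77 and 7.69 in the UVB mice. The S100a16 signal was 7.42, 7.21 and 7.23 against 7.21, 7.33 and 7.14. Both overlapped between the groups, and both had the narrowest intervals of the members. S100a14 differed by 0.16 ± 0.13 (SE; 95% interval -0.16 to 0.47; adjusted p 0.459) and S100a16 by -0.07 ± 0.12 (SE; 95% interval -0.36 to 0.23; adjusted p 0.755). Without UVB replicate 1 the S100a14 value was 0.08, and without UVB replicate 3 that of S100a16 was -0.02. A second S100a16 probe gave -0.28 ± 0.14 (SE), with an adjusted p over all probes of 0.239.

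**Figure D2:**
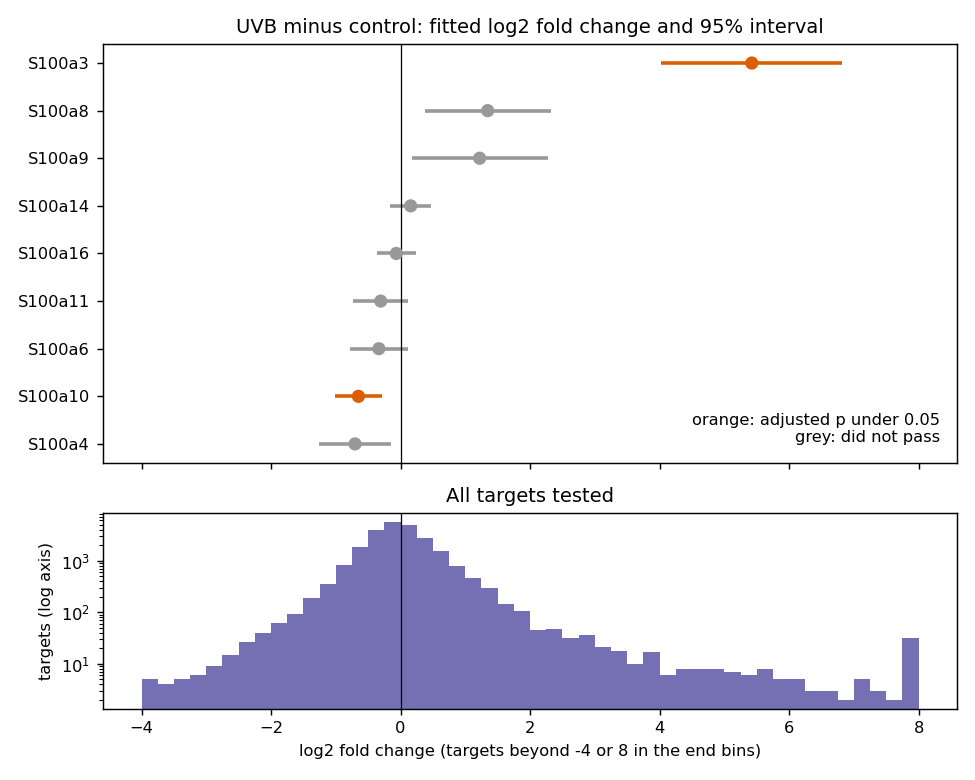
Upper panel, log2 fold change (UVB minus control) of each tested S100 gene with its 95% interval, in orange where the adjusted p is under 0.05; lower panel, number of targets, on a log axis, by log2 fold change over all 24358 targets. S100a3, at 5.42, lies far out in the right tail, S100a8 and S100a9 follow at 1.35 and 1.22, and the other 6 members lie between -0.70 and 0.16.

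The arrays of the UVB group were ordered alike across many of the members. UVB replicate 2 was the UVB array nearest to the control mean for 8 of the 10 genes, all but S100a6 and S100a14. UVB replicate 3 was the highest UVB array for 5 genes (S100a3, S100a6, S100a7a, S100a8 and S100a9) and the lowest for the other 5 (S100a4, S100a10, S100a11, S100a14 and S100a16). The members are measured on the same arrays, so these counts are not independent of each other. UVB replicate 2 also had the smallest share of spots well above background, 54.9%, in a range up to 63.3% over the 6 arrays. Whether that share has a part in the order was not tested.

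The S100 genes of this set fall into 2 groups by position. On mm9, 8 of them, from S100a14 to S100a9, have probes within 164 kb of chromosome 3, and S100a11 and S100a10 lie 2833 kb further on, beyond the epidermal differentiation complex, with probes 38.4 kb apart. Close neighbours differed. The S100a3 probe starts 3.51 kb from that of S100a4, whose log2 fold change was -0.70, and 11.1 kb from that of S100a2, at 0.18 ± 0.30 (SE; adjusted p 0.711). S100a8 and S100a9, with the most similar values, have probes 22.8 kb apart. Across the 3054 kb from S100a1 to S100a10, 58 named genes were tested, of which 29 rose and 2 fell, S100a10 and S100a7l2. The genes that rose lay mostly in the epidermal differentiation complex: 23 of the 31 tested neighbours from that complex were higher and none was lower, with a median log2 fold change of 1.93. With 1 array left out 14 to 22 of these were called higher, and with the slide row as a block 2 were. Those of smallest p were Tchhl1 and Tchh, a relative of trichohyalin and trichohyalin itself, structural proteins of the inner root sheath of hair. Tchh had a log2 fold change of 7.33 ± 0.46 (SE), with an adjusted p of 0.00224, and Tchhl1, below background on all control arrays, was at least 646-fold higher.

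**Figure D3:**
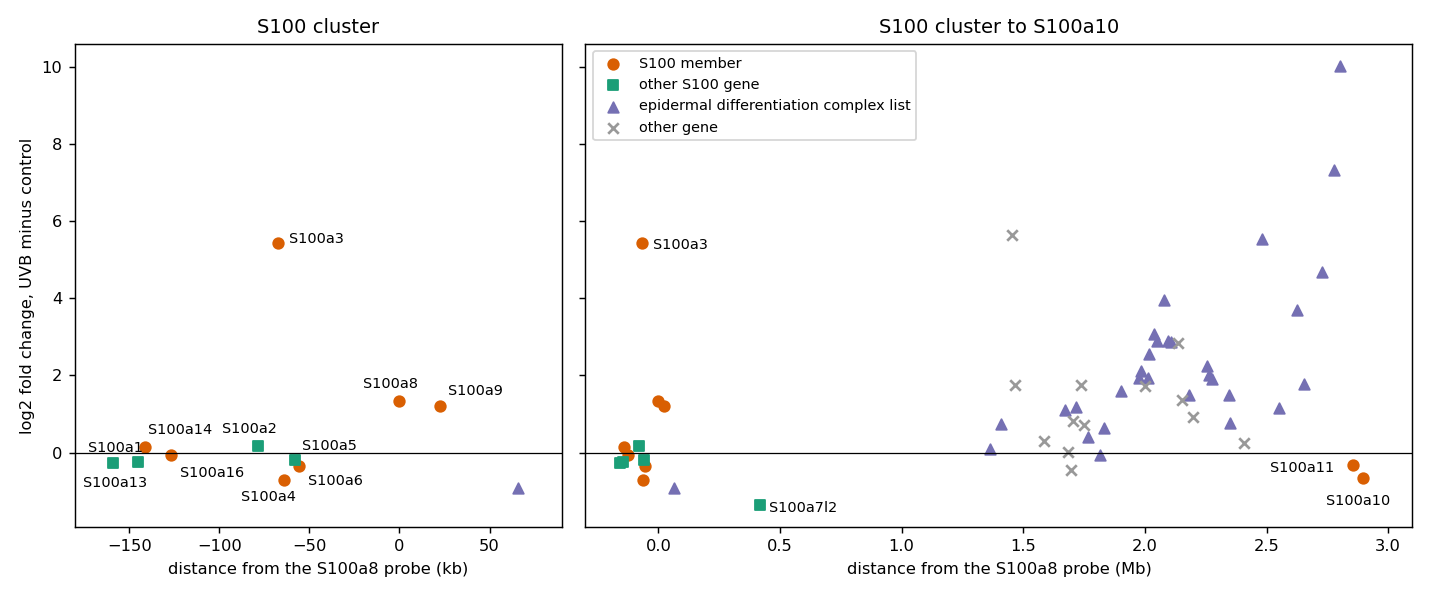
Log2 fold change (UVB minus control) of named genes against the distance of their probes from the S100a8 probe on mouse chromosome 3, in kb for the S100 cluster (left) and in Mb as far as S100a10 (right). S100a3, at 5.42, stands between its neighbours S100a2, at 0.18, and S100a4, at -0.70, and genes of the epidermal differentiation complex list lie mostly above 0.

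No S100 relative passed as higher. Of 9 genes listed as S100 relatives, 8 were tested, none was higher, 1 was lower and the median log2 fold change was -0.22. Over all targets 5.54% were higher and 7% lower, so counts this small among 8 genes do not set the relatives apart. The list includes S100pbp, which encodes an S100P-binding protein and not an S100 protein. S100a7l2, an S100a7-like gene, was lower by -1.35 ± 0.25 (SE; adjusted p 0.0233), and since no UVB array was well above background the change is given as at least 1.89-fold lower in UVB skin. S100a7l2 passed the filter through the control arrays alone. Its call was lost when control replicate 2 or any 1 of the UVB replicates was left out, with normexp and with the replicate block. S100z, for which the log2 fold change was -0.84 ± 0.26 (SE), did not pass, with an adjusted p of 0.0820.

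Receptors and partners were taken from lists drawn up from general knowledge of the family, with earlier results of these data known. Of the 8 tested receptors and adaptors, none was higher and 1 was lower, with a median of -0.35. With the mean of a gene's probes in place of the brightest, 1 was called higher. The shares over all targets were 5.54% higher and 7% lower. Emb, or embigin, a cell-surface glycoprotein reported to bind S100A8, had signals of 3.72, 4.09 and 3.87 in control and 2.96, 3.00 and 3.19 in UVB mice. Emb fell by 0.84 ± 0.15 (SE) on the log2 scale, with an adjusted p of 0.0188, and the call was lost without control replicate 2 or 3 or without UVB replicate 1 or 2. Its relative Nptn, neuroplastin, had a log2 fold change of -0.31 ± 0.12 (SE) and an adjusted p of 0.143. The receptors Ager and Tlr4 were well above background on at most 1 array of each group and were not tested.

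Padi3, which encodes the peptidylarginine deiminase that citrullinates S100A3, was the one intracellular partner of 9 that rose, and none fell. Its signal was -7.01, -4.99 and -7.26 in the control mice and 3.68, 2.84 and 5.0 in the UVB mice. Its log2 fold change was 10.26 ± 0.76 (SE), with an adjusted p of 0.00256, and only 1 of 3 control arrays was well above background, so that the size of the difference rests on values near the floor. Padi3 followed the same order of UVB arrays as S100a3, with replicate 3 highest and replicate 2 lowest. That order was not particular to them, since S100a7a, S100a8 and S100a9 had it too. The annexins and other partners had small differences that did not pass. With quantile normalization, normexp, the deposited values or the alternative variance model, 1 partner was called lower. Over all targets 5.54% were higher and 7% lower. Anxa2, the partner of S100a10, had a log2 fold change of -0.29 ± 0.15 (SE; adjusted p 0.245), and Anxa1, the partner of S100a11, had -0.01 ± 0.17 (SE; adjusted p 0.972). Cacybp, the partner of S100a6, had -0.51 ± 0.15 (SE; adjusted p 0.0770), and Myh9, the myosin bound by S100A4, had -0.10 ± 0.11 (SE; adjusted p 0.595).

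Among cytokines known to induce S100a8 and S100a9 in keratinocytes, those tested did not move in one direction. Of 14 listed, 11 were on the array and 8 were tested, of which 1 was higher and 1 was lower. Over all targets 5.54% were higher and 7% lower, so counts this small among 8 genes do not set the cytokines apart. Their median log2 fold change was 0.01. Il6, Il17a and Il20 were too dim to test, and Il36a, Il36b and Il36g were not found on the array. Tnf fell by 1.79 ± 0.15 (SE) on the log2 scale, with an adjusted p of 0.00323, and Ifng rose by 2.26 ± 0.24 (SE), with an adjusted p of 0.00495. With the slide row as a block, where only UVB replicate 1 enters the contrast, the differences were -1.66 and 2.05 and neither passed. The Ifng signal was -4.835, -4.528 and -4.784 in the control mice. The dimmest measurable levels of those arrays were -4.84, -5.41 and -5.15, so the size of the Ifng rise rests on values near the floor. Among 10 genes of activated epidermis, 1 rose and 2 fell, with a median of 0.05. Counts this small do not set that list apart from all targets either. Lcn2, which encodes the iron-withholding protein lipocalin 2 and is often raised together with S100a8 and S100a9, fell by 2.28 ± 0.28 (SE), with an adjusted p of 0.00766. Its signal was 0.67, 1.1 and 0.70 in control and -1.39, -2.01 and -0.97 in UVB mice. Defb14, an epithelial beta-defensin, rose by 1.71 ± 0.28 (SE), with an adjusted p of 0.0163, and lost its call without control replicate 2. The other gene that fell was Slpi, a protease inhibitor named after its values were seen, by 1.12 ± 0.25 (SE; adjusted p 0.0392), and 1 of these 2 decreases was lost when any array other than control replicate 3 was left out.

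In whole skin, a change in the number of cells of a type and a change in RNA per cell cannot be told apart, and markers of several cell types differed between the groups. Keratins of skin were well above background on all arrays: Krt14 of basal keratinocytes lay between 8.47 and 9.0 and Krt10 of suprabasal keratinocytes between 8.86 and 9.57 over the 6 arrays. Col1a1, a collagen of dermal fibroblasts, lay between -1.32 and 0.43 in control and between 1.51 and 2.36 in UVB mice. In the lists that follow, summed levels are sums of unlogged signals in units of each array's 75th percentile. Beside their counts, 5.54% of all targets were higher and 7% lower, and small counts do not set a list apart. The part of these cell types in the S100 differences was not tested.

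Neutrophil markers bear on S100a8 and S100a9. Of 20 listed, 19 were on the array and 10 were tested, 1 rose, 1 fell and the median was 0.47. The summed level ranged from 116 to 130 in control and from 166 to 224 in UVB mice. Csf3r, which did not pass, made up 67.3% to 81.1% of it, and the other genes summed to 23.5 to 28.0 in control and 52.9 to 58.7 in UVB mice. Most of the rise in that remainder came from 1 gene, Stfa2l1. Its log2 signals were 2.507, 3.081 and 1.355 in control and 4.663, 4.879 and 5.042 in UVB mice. Ngp, Ltf, Retnlg, Mmp8, Fpr1, Fpr2 and Trem3, 7 genes of the list that include granule proteins and receptors defining neutrophils, were not well above background on any array, and Mpo, myeloperoxidase, was not on any UVB array. Stfa2l1, a stefin, rose by 2.55 ± 0.42 (SE; adjusted p 0.0171), a call lost without UVB replicate 1 or 2. Mmp9, a gelatinase, fell by 2.47 ± 0.34 (SE; adjusted p 0.00993), with 1 of 3 UVB arrays well above background, so that this size rests on values near the floor. Camp, the cathelicidin precursor, had a log2 fold change of 0.73 ± 0.27 (SE; adjusted p 0.131), and Csf3r, the G-CSF receptor, had 0.44 ± 0.18 (SE; adjusted p 0.166). Camp had 2 tested probes, which disagreed in direction, and the value is that of the brighter.

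Macrophage markers had a summed level of 19.2 to 21.4 in control and 7.04 to 9.81 in UVB mice. Csf1r alone made up 73.2% to 90.4% of it, and the rest summed to 1.84 to 2.56 in control and 1.89 to 2.23 in UVB mice. Of 9 tested, 1 rose and 2 fell, with a median of -0.01. Adgre1, the F4/80 antigen, fell by 1.88 ± 0.11 (SE; adjusted p 0.00179) and Csf1r, the CSF-1 receptor, fell by 1.52 ± 0.17 (SE; adjusted p 0.00605). Lyz2, lysozyme, named after its values were seen, rose by 1.47 ± 0.34 (SE; adjusted p 0.0422), a call lost in 5 of the 6 fits that left out 1 array, and its size rests on values near the floor, with 1 of 3 control arrays well above background. Cd68 was well above background on 1 control and 0 UVB arrays. Langerhans and dendritic cell markers had 0 genes higher and 7 of 10 lower, with a median of -1.07 and a summed level of 197 to 231 in control against 83.3 to 113 in UVB mice. Cd207, or langerin, fell by 1.41 ± 0.18 (SE; adjusted p 0.00832), and Cd74, the class II invariant chain, fell by 1.05 ± 0.15 (SE; adjusted p 0.0108). With 1 array left out, between 2 and 6 of these 10 genes were called lower.

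Hair shaft markers bear on S100a3. Of 8 tested hair cortex markers 7 rose and none fell, with a median log2 fold change of 7.37. Their summed level was 4.30 to 5.33 in control mice and 97.7, 59.2 and 387 in UVB replicates 1, 2 and 3. This is the order of UVB arrays seen for S100a3, and also for S100a7a, S100a8 and S100a9. Krtap11-1, a keratin-associated protein, rose by 8.40 ± 0.62 (SE; adjusted p 0.00252), and the hair keratin gene Krt33b, below background on all control arrays, was at least 524-fold higher. Of 8 tested hair cuticle markers, 4 rose and none fell, with a median of 3.39. Their summed level was 15.8 to 20.8 in control mice and 30.2, 18.4 and 42.7 in the UVB mice, so that of UVB replicate 2 lay inside the control range. Krt85, which did not pass, made up between 20.0% and 87.6% of that sum, and without it the sums were 2.12 to 2.62 in control and 16.6, 7.05 and 34.2 in UVB mice. The 3 tested probes of Krt85 disagreed in direction, and the brightest, at -0.49, was the one used. Krt35 rose by 5.39 ± 0.65 (SE; adjusted p 0.00704) and Krt82 by 5.75 ± 0.71 (SE; adjusted p 0.00757). Krt33b and Krt34 of the cortex list and Krt32 and Krt40 of the cuticle list were well above background on 0 control and 3 UVB arrays. These genes passed the filter through the UVB arrays alone, so the counts and medians of both lists rest in part on values near the floor. Krt39 and Crisp1 of the cuticle list, dim in both groups, were not tested. With the slide row as a block, 3 cortex markers and 0 cuticle markers were called higher, and without control replicate 2 the count of cuticle markers was 2.

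Keratinocyte layers bear on the S100 genes of the epidermis at large. Of 8 basal keratinocyte markers, none rose and 4 fell, with a median of -0.49, and Itga3 and Itga6, integrin subunits, fell by 1.15 ± 0.19 and 0.61 ± 0.12 (SE; adjusted p 0.0164 and 0.0251). The number called lower was between 0 and 2 with 1 array left out, and Krt14 did not pass, at -0.30 ± 0.13 (SE; adjusted p 0.174). Of 10 suprabasal markers 5 rose and none fell, with a median of 1.14 and a summed level of 1856 to 2355 in control and 3341 to 3990 in UVB mice. Ivl, involucrin, rose by 1.61 ± 0.15 (SE; adjusted p 0.00392) and Krt2 rose by 4.62 ± 0.68 (SE; adjusted p 0.0126). Krt10 had a log2 fold change of 0.42 ± 0.13 (SE) and an adjusted p of 0.0900. Between 1 and 7 suprabasal markers were called higher with 1 array left out.

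The remaining lists concern cells in which S100 genes are also known to be expressed. Fibroblast markers had 3 genes higher and 1 lower of 8 tested, with a median of 1.05. Col1a1 rose by 2.35 ± 0.46 (SE; adjusted p 0.0262) while Thy1 fell by 1.85 ± 0.12 (SE; adjusted p 0.00235), and between 0 and 3 were called higher with 1 array left out. Melanocyte markers had 4 higher and none lower of 6 tested, with a median of 2.81, led by the pigment cell genes Mlana (4.38 ± 0.19, SE; adjusted p 0.00101) and Tyrp1 (3.45 ± 0.21, SE; adjusted p 0.00212). Schwann cell markers had 1 higher and 1 lower of 5 tested, Sox10 at 0.53 ± 0.12 (SE; adjusted p 0.0345) and Mbp at -0.78 ± 0.15 (SE; adjusted p 0.0273). Leaving out UVB replicate 2 gave 0 higher and 1 lower, and leaving out any other array gave 0 of either. Adipocyte markers had 1 higher and 1 lower of 4 tested, Fabp4 at 4.80 ± 0.77 (SE; adjusted p 0.0158) and Cidec, below background on all UVB arrays and at least 5.12-fold lower. Without UVB replicate 1 neither of these was called, and without control replicate 2 or UVB replicate 2 Cidec was not. None of 4 tested skeletal muscle markers and none of 3 tested endothelial markers passed in limma. The muscle gene Myh4 was the 1 of these 7 with an unadjusted p under 0.05, and 1 muscle marker was called lower without control replicate 3.

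**Figure D4:**
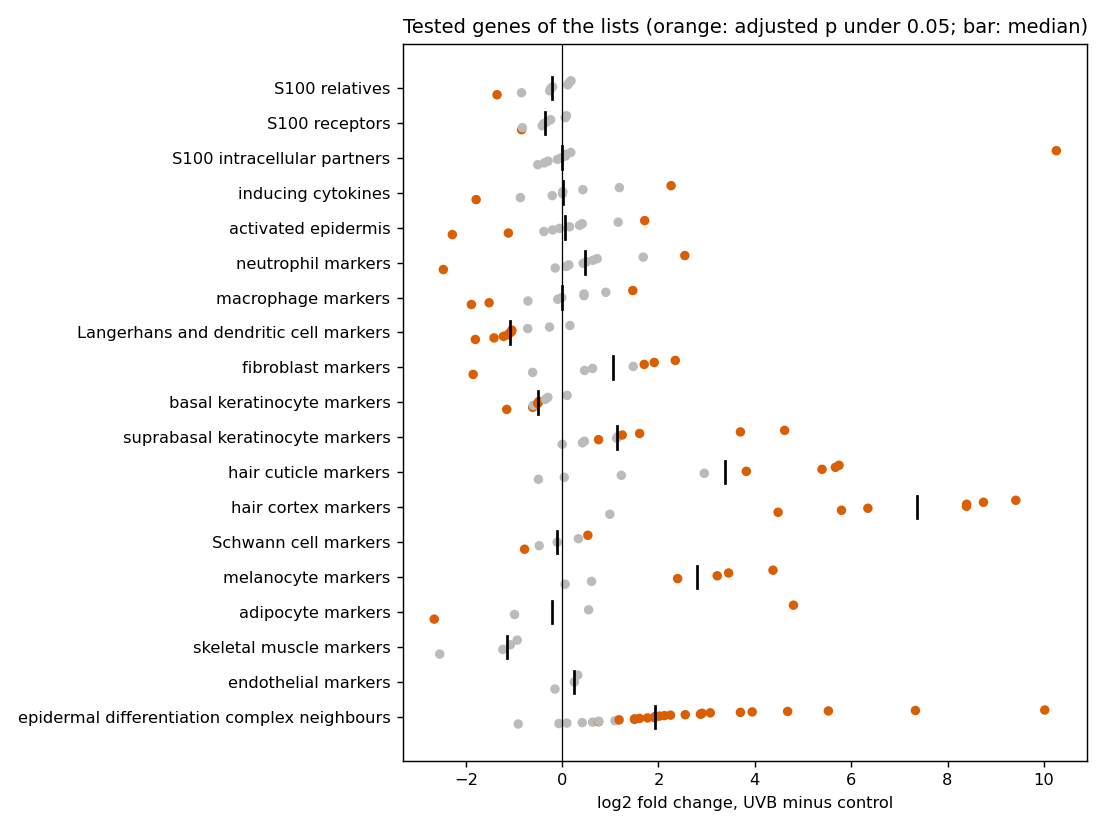
Log2 fold change (UVB minus control) of each tested gene in the S100-related, cytokine, cell type and neighbour lists, in orange where the adjusted p is under 0.05, with the median of each list as a black bar. Padi3, at 10.26, S100a7l2, at -1.35, and Emb, at -0.84, are the called genes among S100 relatives, receptors and partners, and the hair cortex list has the highest median, at 7.37.

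The genes whose values over the 6 arrays were most like those of S100a8 and S100a3 were found by the root mean square (RMS) difference of log2 signals, each centred on its own mean, as a description. For S100a8, among 14281 named targets well above background on all arrays, S100a9 had an RMS difference of 0.12, and the 3 closest genes outside the family were Hoxc13 at 0.18, Gm8884 at 0.19 and Atg9b at 0.20. Hoxc13, a homeobox factor of hair and nail, had signals of -0.10, -0.31 and -1.14 in control and 0.86, 0.32 and 1.49 in UVB mice, with the low control replicate 3 seen for S100a8. None of these 3 genes passed the test, with adjusted p-values of 0.0615, 0.0723 and 0.15. They were chosen for values like those of S100a8, so this outcome is not separate evidence. For S100a3, among 15903 named targets well above background on at least 3 arrays, the closest were Prr9 at 0.19, Krt31 at 0.27 and Krt28 at 0.32. Prr9, a proline-rich protein gene between S100a9 and S100a11, had signals of 0.95, 1.11 and 1.28 in control and 6.55, 5.83 and 7.85 in UVB mice. All 3 rose, by 5.63, 5.80 and 4.94 on the log2 scale, with adjusted p-values of 0.00353, 0.00453 and 0.00870. Being chosen for values like those of S100a3, they had to rise, so these tests are not separate evidence either.

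**Figure D5:**
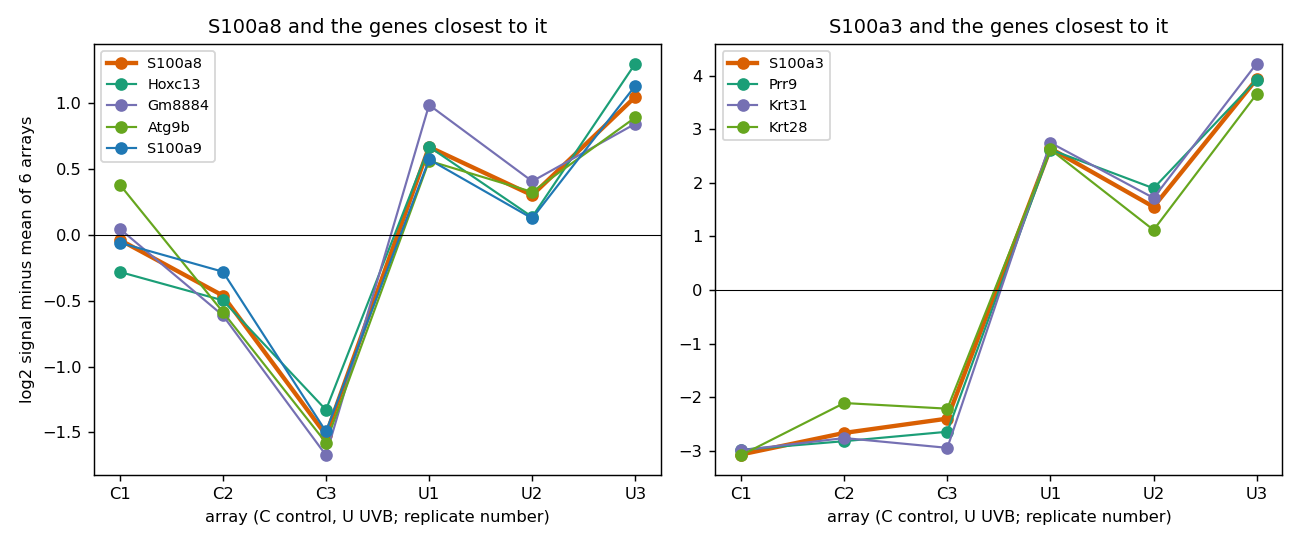
Log2 signal of S100a8 (left) and S100a3 (right), with the genes closest to each, on the 6 arrays, after subtracting each gene's mean over the arrays; lines only join the points of a gene. Control replicate 3 is the lowest array of S100a8 and its closest genes, and UVB replicate 2 is the lowest UVB array of S100a3 and its closest genes. The genes were chosen for this likeness.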

How the data were processed

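The scanner files hold intensity values of single spots, which the authors obtained with Agilent Feature Extraction 10.7.1.1, per the submitters' processing notes and the file headers. The processed intensity is background-adjusted and detrended within each array, per the file headers, and probe positions are on mm9. A deposited table of log2 values holds the same 6 arrays with columns of nearly equal distribution (sorted values alike within 0.00212, median 4.95), in the same direction as the processed signal (r 0.99866 to 0.99997). No source used here names its normalization; it served as an alternative.

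Log2 of the processed signal was taken after scaling each array to its 75th percentile (302 to 519). Control spots were dropped, as were spots flagged as outliers (135 to 274 of 62976 on an array); repeated spots were averaged, and 0 spots were saturated. Probes well above background on at least 3 of 6 arrays were tested, and the brightest such probe stood for its gene. Where a probe was below background on all arrays of a group, a bound is given: the bright group's mean against the mean, over the dim group's arrays, of the lowest signal well above background or the probe's own if higher. Of 55681 probes, 26582 were named by accession, 2602 by symbol and 492 by synonym through RefSeq (GRCm38.p6), and the rest kept the file's name. Groups of 3 arrays were compared by two-sided moderated tests (lmFit, eBayes) of limma 3.58.1 under R 4.3.3. On simulated data for UVB against control over 24358 targets, 35.0% of 2-fold and 76.7% of 4-fold changes were recovered. The number of arrays limits the precision.

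The members, lists and tests were chosen with earlier results of these data known. The text names all members, the 2 genes of smallest p in each list, a few partners, receptors and cell markers listed with the rule, and the 3 genes closest to S100a8 and S100a3. Any other gene was named after its values were seen. Array correlations were 0.980 to 0.991 within and 0.953 to 0.972 between groups. All arrays shared 1 slide and 1 scan. Alternatives covered scaling, background correction, the deposited table, the filter, the probe rule, the variance model, a replicate block, leaving out each array, and, added after the data were seen, the slide row as a block.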

Additional observations from a re-analysis of the deposited data

How the results depend on the processing

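Of the log2 fold changes of the 9 tested members, 140 values under the alternatives kept their direction and side of the threshold, 3 passed where they had not, 9 no longer passed and 1 reversed. The number of members called higher was 2 with normexp background correction and 0 with the slide row as a block. The number called lower was 2 with normexp, 0 without the filter on dim probes, 0 with the replicate block, 0 with the slide row as a block, and between 0 and 2 with 1 array left out: 2 without UVB replicate 2 and 0 without any other. S100a3 passed in every alternative but the slide row, with adjusted p-values from 0.000696 to 0.0290. S100a16 was at 0.00172 without control replicate 1, with a range of -0.12 to 0.00172 over the arrays left out, and never passed. Over all targets, 2548 were higher with normexp, 472 with the replicate block and 106 with the slide row, and 468 to 957 with 1 array left out, beside 1350. Lower targets numbered 1061 without the filter, 301 with the replicate block and 122 with the slide row, and 391 to 1064 with 1 array left out, beside 1706. Fewer arrays, or a block, leave fewer degrees of freedom; otherwise the cause was not tested. Higher targets made up 44.2% of calls, 35.4% with median scaling and 50.6% with normexp. They made up 61.1% with the replicate block and 49.5% without the filter. The median of all targets moved by -0.10 with median scaling, 0.12 with normexp and 0.14 without the filter. Relative to that median, S100a10 was at -0.61 in the main setting and with median scaling, and at -0.83 with normexp. Same-numbered control and UVB arrays did not deviate together (correlations -0.11, -0.26 and -0.08). Deviations from the means of groups of 3 arrays constrain each other, so these correlations cannot decide whether the numbers pair the mice. Of the list counts, 507 stayed within 1.5 times under the alternatives and 139 did not. Dim signal limits S100a7a, Ager, Tlr4 and the 7 neutrophil markers at background. The slide-row fit rests on UVB replicate 1 alone against 3 controls.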
